A study of Mus musculus with 2 samples.

Results

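The Nrf2 antioxidant response genes described here are 10 genes, Nqo1, Gclc, Gclm, Txnrd1, Srxn1, Slc7a11, Osgin1, Gsr, G6pdx and Prdx1, found by symbol among 31058 features of the count tables. All 10 were present. Transcripts were counted in single cells of whole kidneys, taken from female C57Bl/6 mice aged 9 weeks after rhabdomyolysis, the breakdown of skeletal muscle that releases myoglobin and injures the kidney tubule. 1 library came from rhabdomyolysis with CA3, a compound used to inhibit the coactivator YAP1, and 1 library from rhabdomyolysis with vehicle. The genotype of both groups was Pax8.rtTA with TetO.Cre and R26.FUCCI2aR: the Pax8 promoter drives the inducer of Cre in tubule epithelium, and FUCCI2aR is a fluorescent reporter of the cell cycle. Neither an uninjured group nor a further library of either group was analysed here, and for CA3 dose, time after injury and animals in each library no value is given in the sources read. With 1 library per group no test was possible, so each ratio is printed with its exact 95% interval for counting error, which does not cover differences between animals or libraries.

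Nrf2, encoded by Nfe2l2, is a transcription factor that is held low in resting cells because Keap1 presents it to the Cul3 ubiquitin ligase. Oxidants and electrophiles modify Keap1, and Nrf2 then accumulates, pairs with a small Maf protein and binds antioxidant response elements (AREs), for which the repressor Bach1 competes. In the kidney the pathway is known chiefly for its part in how tubule cells withstand oxidative and ischaemic injury. The 10 genes cover several arms of the response. Gclc and Gclm encode the catalytic and modifier subunits of glutamate-cysteine ligase, which sets the rate of glutathione synthesis. Slc7a11 encodes the cystine importer that feeds it, and Gsr the reductase that regenerates glutathione. Txnrd1, Prdx1 and Srxn1 belong to the thioredoxin arm, as the cytosolic thioredoxin reductase, a peroxide-reducing peroxiredoxin and the sulfiredoxin that repairs overoxidised peroxiredoxins. Nqo1 reduces quinones, G6pdx is the X-linked glucose-6-phosphate dehydrogenase that makes NADPH, and Osgin1 is an oxidative stress-induced growth inhibitor.

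On mm10, all 10 are protein-coding genes. Nqo1 (ENSMUSG00000003849) lies at chr8:107388225-107403206 on the minus strand. Gclc (ENSMUSG00000032350) lies at chr9:77754535-77794485 on the plus strand and Gclm (ENSMUSG00000028124) at chr3:122245557-122270732, plus. Txnrd1 (ENSMUSG00000020250) lies at chr10:82833951-82897712, plus, and Srxn1 (ENSMUSG00000032802) at chr2:152105516-152111376, plus. Slc7a11 (ENSMUSG00000027737) lies at chr3:49892526-50443614, minus, Osgin1 (ENSMUSG00000074063) at chr8:119434124-119446256, plus, and Gsr (ENSMUSG00000031584) at chr8:33652523-33698163, plus. G6pdx (ENSMUSG00000031400) lies at chrX:74409483-74429194, minus, and Prdx1 (ENSMUSG00000028691) at chr4:116685544-116700822, plus. Counts of Prdx1 and G6pdx are uncertain, because 32.8% and 20.2% of the 31-base words in the last 500 bases of their transcripts occur in other genes, 3 genes for Prdx1 and 1 for G6pdx. For the other 8 genes this share was at most 0.101%.

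RefSeq promoters (GRCm38.p6) matched 8 of the 10 genes. Starts in this paragraph are those of RefSeq and need not equal the gene starts given above. The Osgin1 window printed below lies inside its locus, and those of Prdx1 and Srxn1 end past the first base of theirs. The 250 bases before the start are printed for Osgin1 and Prdx1, the members whose ratios lay far from 1 in opposite directions between the cell states described below, and for Srxn1 and Gclm, whose windows hold other arrangements of the same motifs. Capitals mark the letters matched by any of 3 motifs, searched on both strands: the ARE core TGACNNNGC, the AP-1 motif TGACTCA, and TGAGTCAGC, an ARE variant that contains the AP-1 letters of the other strand. The sequences run 5′ to 3′ on the strand of the gene, and all 4 genes are on the plus strand.
Osgin1 (chr8:119436897-119437146): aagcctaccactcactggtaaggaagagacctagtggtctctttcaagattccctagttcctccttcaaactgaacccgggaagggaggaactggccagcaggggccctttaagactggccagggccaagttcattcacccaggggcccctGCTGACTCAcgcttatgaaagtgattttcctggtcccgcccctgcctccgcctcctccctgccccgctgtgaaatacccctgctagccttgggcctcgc
Prdx1 (chr4:116685349-116685598): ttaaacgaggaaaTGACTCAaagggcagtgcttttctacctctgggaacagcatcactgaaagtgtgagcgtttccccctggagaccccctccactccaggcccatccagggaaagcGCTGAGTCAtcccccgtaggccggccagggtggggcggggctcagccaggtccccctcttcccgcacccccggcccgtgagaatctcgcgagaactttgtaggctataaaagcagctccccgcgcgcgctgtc
Srxn1 (chr2:152105274-152105523): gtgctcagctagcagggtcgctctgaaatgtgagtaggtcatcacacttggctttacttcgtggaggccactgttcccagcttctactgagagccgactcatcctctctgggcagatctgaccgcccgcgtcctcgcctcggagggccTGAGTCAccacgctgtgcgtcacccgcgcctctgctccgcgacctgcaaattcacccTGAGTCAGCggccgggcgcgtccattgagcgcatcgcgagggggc
Gclm (chr3:122245307-122245556): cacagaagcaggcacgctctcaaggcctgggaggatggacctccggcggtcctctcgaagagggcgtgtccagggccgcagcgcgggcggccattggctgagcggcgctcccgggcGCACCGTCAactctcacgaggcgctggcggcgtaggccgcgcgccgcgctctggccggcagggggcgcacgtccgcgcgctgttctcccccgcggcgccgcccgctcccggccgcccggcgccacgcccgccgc
The ARE core occurred at 4 of the 10 start sites of the 8 matched genes, each in a different gene, against 10.2% of 32851 promoters of the same length. In Gclm it read TGACGGTGC, 134 to 126 bases before the start, and in Prdx1 TGACTCAGC, 133 to 125 bases before it, both on the minus strand. The other matches were TGACAAAGC at 1 of 3 start sites of Txnrd1 and TGACTGAGC in G6pdx. The AP-1 motif occurred in Srxn1, Osgin1 and Prdx1, against 4.46% of promoters. The variant TGAGTCAGC occurred in Srxn1, 45 to 37 bases before the start, and in Osgin1, 99 to 91 bases before it, against 0.347% of promoters. In Prdx1 the ARE core and an AP-1 match shared letters, an arrangement found in 0.390% of promoters. The windows of Nqo1 and Slc7a11 held none of these letters. A match describes the window only and shows neither binding nor a cause of the levels below.

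The CA3 library held 1724 barcodes and 17013222 unique molecular identifiers (UMIs), and the vehicle library 1967 barcodes and 19592239 UMIs. After filters on genes and mitochondrial share, 1491 CA3 cells and 1766 vehicle cells were kept, with medians of 7571 and 7334.5 UMIs per cell. The libraries shared 1 cell barcode. Proximal tubule-like cells were 1157 of the CA3 cells (77.6%) and 1434 of the vehicle cells (81.2%), and all 8 of their markers were found in both libraries. Class names come from marker genes and mean "like" that type throughout. Within the proximal tubule, clusters were split into early, middle and late by their Slc5a2 and Slc5a12 levels. The late-segment markers, which this split did not use, summed to 699 CPM (UMIs scaled to a total of 1000000) in late and 78.9 CPM in early cells of the CA3 library, and to 995 and 84.8 CPM in the vehicle library.

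Osgin1 and Gclm were the members most concentrated in the proximal tubule, while Slc7a11 was all but missing from it. Levels are CPM over the UMIs of genes not encoded in mitochondria, and UMIs from the 3′ end do not scale with transcript length. Osgin1 had 162 CPM in CA3 and 146 CPM in vehicle proximal tubule cells, and every other class was at 24.7 CPM or less. Proximal tubule cells were 10.9 times (8.15 to 14.99) above all other kept cells of the CA3 library and 20.1 times (13.8 to 30.3) above those of the vehicle library. The 2 intervals touch only from 13.8 to 14.99, and the other cells held few Osgin1 UMIs, 46 in the CA3 and 28 in the vehicle library.

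Gclm, the modifier subunit, stood at 326 CPM in CA3 and 353 CPM in vehicle proximal tubule cells, 3.21 (2.86 to 3.62) and 3.66 (3.29 to 4.08) times the other cells. Its partner Gclc had the opposite placement: it was highest in intercalated cells, at 325 and 322 CPM in the CA3 and vehicle libraries, and in the distal nephron, at 249 and 232 CPM. In CA3 and vehicle proximal tubule cells Gclc reached 103 and 99.9 CPM, 0.738 (0.658 to 0.829) and 0.731 (0.658 to 0.813) times the other cells. The 2 subunits of 1 enzyme were thus distributed differently along the nephron in both libraries. Intercalated cells numbered only 18 in the CA3 and 15 in the vehicle library.

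The peroxiredoxin Prdx1 had 1545 CPM in CA3 and 1583 CPM in vehicle proximal tubule cells, 2.40 (2.29 to 2.51) and 2.41 (2.32 to 2.52) times the other cells. It made up 61.5% of the UMIs of the 10 genes in CA3 proximal tubule cells and 62.6% in vehicle ones. Gsr was also higher in the proximal tubule, 2.44 (2.12 to 2.83) times in the CA3 and 2.09 (1.83 to 2.39) times in the vehicle library. Mononuclear phagocytes nevertheless reached the same range of Gsr, with 144 CPM in CA3 and 152 CPM in vehicle cells, against 172 and 142 CPM in the proximal tubule. The order of these 2 classes therefore differed between the libraries. Nqo1 had 26.95 and 27.57 CPM in the proximal tubule of the CA3 and vehicle libraries and 24.7 and 25.4 CPM in the distal nephron, and was at most 15.9 CPM in every other class. With the few podocytes left out, Txnrd1 was the most evenly spread of the 10, between 43.0 and 164 CPM across all classes and libraries. It had 132 CPM in CA3 and 141 CPM in vehicle proximal tubule cells.

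Srxn1, which repairs peroxiredoxins, was highest in the same 2 classes as Gclc, in the same order in both libraries. It had 80.3 and 72.9 CPM in intercalated cells of the CA3 and vehicle libraries and 68.2 and 58.9 CPM in the distal nephron. Its proximal tubule levels were 34.4 and 28.0 CPM. G6pdx was highest in mononuclear phagocytes, at 51.0 and 52.8 CPM, against 9.28 and 8.40 CPM in the proximal tubule of the CA3 and vehicle libraries. Slc7a11, the cystine importer, was a gene of phagocytes in these cells: they held 48 of its 50 UMIs in the CA3 library and 13 of 16 in the vehicle library. In the proximal tubule it had 1 UMI in 1157 CA3 cells and 0 in 1434 vehicle cells, and a count of 0 allows up to 0.283 CPM. Past a ratio of 1.5, proximal tubule cells were higher than other cells in 5 of 10 counted members of the CA3 library and lower in 2, against 19.5% and 37.5% of all genes. In the vehicle library 5 of 9 were higher and 1 lower, against 16.7% and 40.6% of all genes.

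Tubule transcripts were also found in cells that should lack them, so low levels of a member outside the proximal tubule can include such background. With each cell thinned to 2000 UMIs, Slc34a1, the phosphate transporter of the proximal tubule, was found in 22.9% of T or NK cells of the CA3 library and 19.6% of those of the vehicle library, against 96.5% and 96.4% of proximal tubule cells. Osgin1 was found in 1.04% and 1.96% of T or NK cells of the CA3 and vehicle libraries, and in 12.9% and 11.02% of proximal tubule cells. For Gclm the shares were 9.38% and 13.7% of T or NK cells and 39.0% and 40.3% of proximal tubule cells. Txnrd1 was not separable in this way, at 14.6% and 21.6% of T or NK cells and 17.6% and 21.4% of proximal tubule cells. Median depths before thinning were 7917 UMIs in CA3 and 7197.5 UMIs in vehicle proximal tubule cells. For T or NK cells they were 6082.5 UMIs in the CA3 and 5235 UMIs in the vehicle library.

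**Figure D1:**
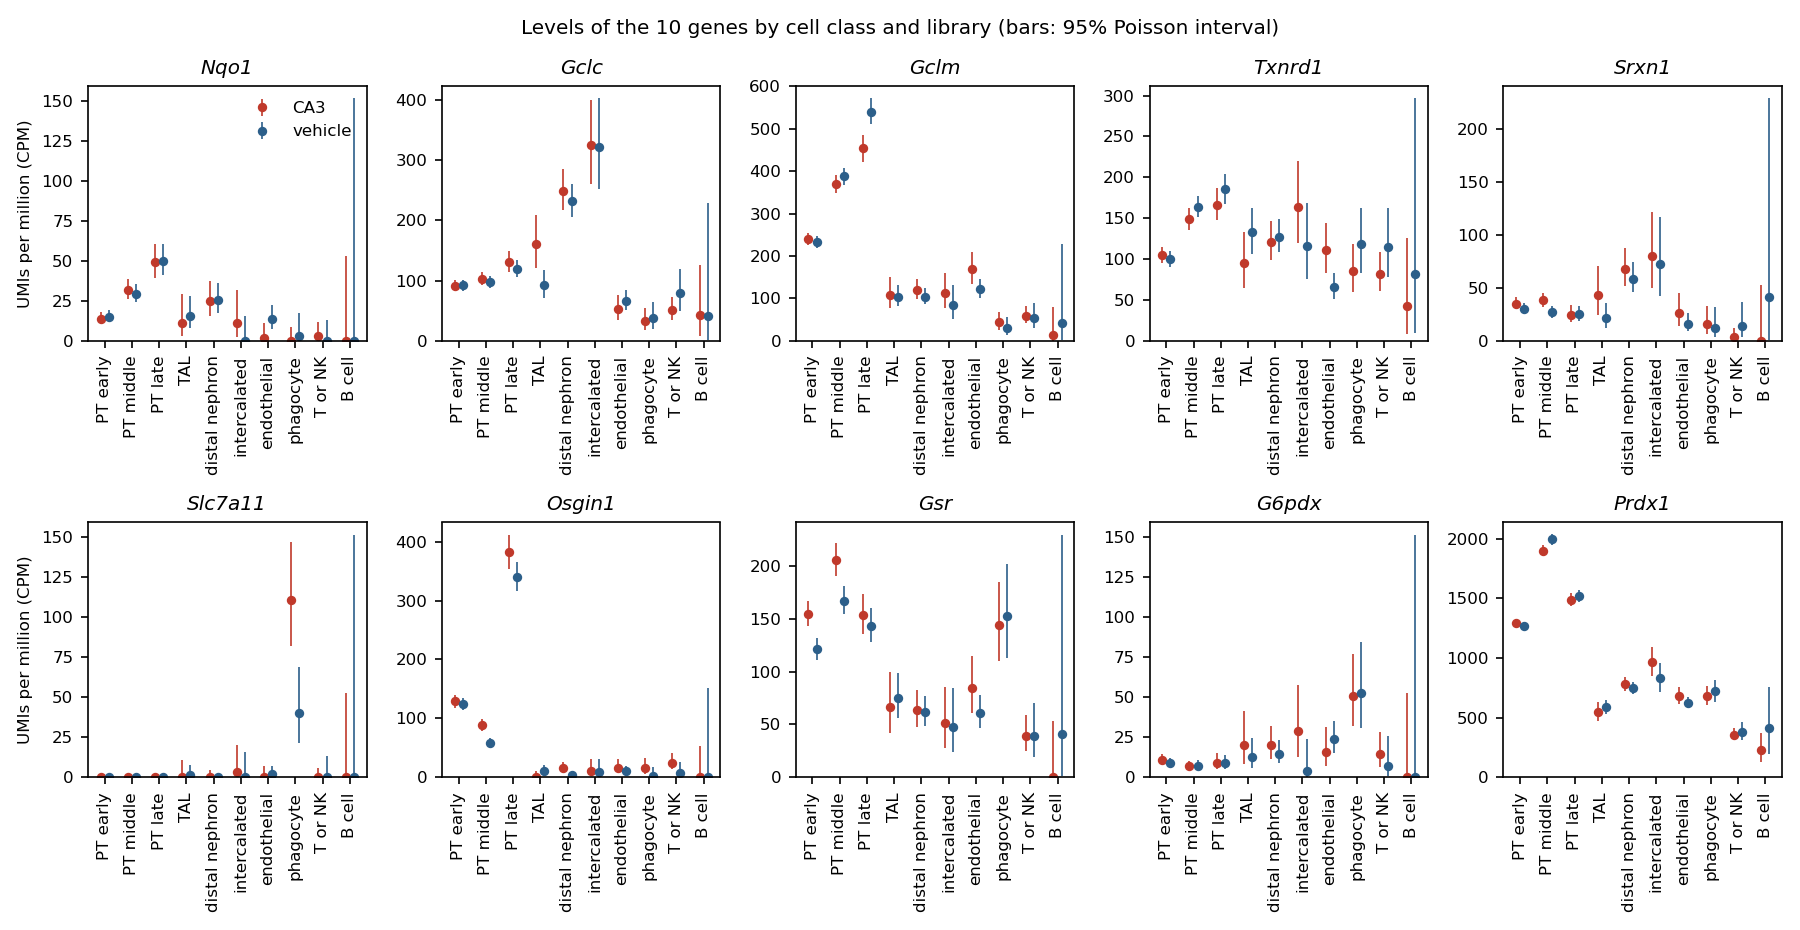
Levels of the 10 genes in CPM (vertical axes, each from 0) by cell class and proximal tubule (PT) segment, with CA3 in red and vehicle in blue and bars for the 95% Poisson interval of the count. Osgin1 and Gclm stand out in the PT, Gclc and Srxn1 in distal nephron and intercalated cells, and Slc7a11 in phagocytes, where it has 111 CPM in the CA3 and 40.4 CPM in the vehicle library.

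Along the proximal tubule, Nqo1 showed the clearest gradient towards the late segment. It had 49.2 CPM in late and 13.9 CPM in early cells of the CA3 library, a ratio of 3.54 (2.50 to 5.03), and 50.1 and 15.1 CPM in the vehicle library, a ratio of 3.32 (2.43 to 4.55). Middle cells lay between, at 31.8 CPM in the CA3 and 29.4 CPM in the vehicle library. Gclm had the same order, with late over early ratios of 1.89 (1.72 to 2.08) in the CA3 and 2.32 (2.13 to 2.52) in the vehicle library. Txnrd1 was likewise higher in late cells, by 1.58 times (1.36 to 1.84) in the CA3 and 1.85 times (1.62 to 2.12) in the vehicle library. Smaller differences were seen for Gclc, 1.44 and 1.29, and for Prdx1, 1.15 and 1.20 in the CA3 and vehicle libraries. That of Gclc in the vehicle library was 0.994 (0.830 to 1.19) without the 33 vehicle cells of a late cluster led by Kap, in which Gclc had 326 CPM. Prdx1 peaked in the middle segment, at 1899 and 1996 CPM.

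Past a ratio of 1.5, 4 members were higher in late cells and none was lower in each library, among 9 counted, where all genes were called higher in 10.2% and lower in 26.2% of cases in the CA3 library and in 10.8% and 26.5% in the vehicle library. The 4 were Nqo1, Osgin1, Gclm and Txnrd1. For Gsr the late over early ratio was 0.995 (0.859 to 1.15) in the CA3 and 1.18 (1.03 to 1.36) in the vehicle library, and for Srxn1 0.706 (0.490 to 0.998) and 0.837 (0.602 to 1.15). G6pdx had only 16 UMIs in late CA3 cells and 20 in late vehicle cells, too few to order the segments.

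Osgin1 was higher in late than in early cells among those that expressed the immediate early gene Fosb, and no such difference was resolved among the rest. It formed no steady gradient, because over all cells and in Fosb-positive cells the middle segment was lowest. Taken over all cells it had 129, 88.1 and 381 CPM in early, middle and late cells of the CA3 library, and 124, 58.4 and 341 CPM in the vehicle library. Fosb encodes a subunit of the transcription factor AP-1. In Fosb-positive cells the order was the same, with 231, 178 and 766 CPM in the CA3 and 220, 110 and 662 CPM in the vehicle library. Among cells with at least 1 Fosb UMI the late over early ratio was 3.32 (2.93 to 3.76) in the CA3 and 3.002 (2.66 to 3.38) in the vehicle library. Among cells with no Fosb UMI it was 0.953 (0.645 to 1.38) in the CA3 and 1.01 (0.707 to 1.41) in the vehicle library. The intervals of the 2 states did not overlap in either library. For Nqo1 they did: its ratio was 3.05 (1.76 to 5.36) in Fosb-positive and 3.94 (2.50 to 6.29) in Fosb-negative CA3 cells, and 3.58 (2.16 to 6.09) and 3.20 (2.15 to 4.81) in vehicle cells. Fosb itself was not matched between the segments. Late Fosb-positive cells had 2931 CPM of Fosb and early ones 1301 CPM in the CA3 library, and 3026 and 1546 CPM in the vehicle library. A late cluster of 58 CA3 and 79 vehicle cells was high in Fosb. Without it the pooled Osgin1 ratio was 0.477 (0.359 to 0.624) in the CA3 and 0.479 (0.371 to 0.610) in the vehicle library. Other settings of the clustering moved this ratio between 0.760 and 4.58 in the CA3 and between 0.797 and 4.06 in the vehicle library. Its direction over all cells thus depended on the clustering, and the cause was not tested.

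**Figure D2:**
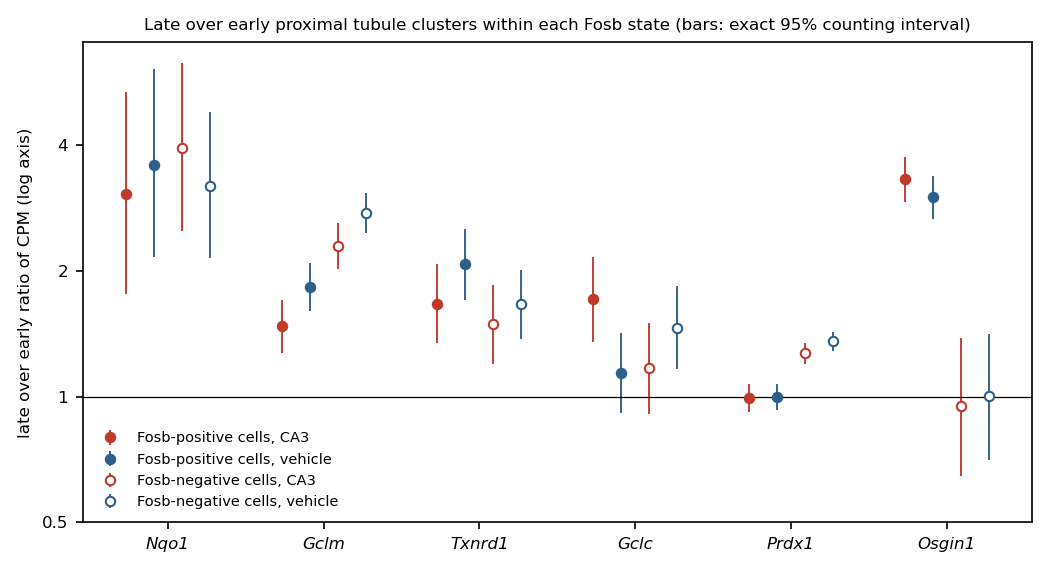
Late over early ratio of CPM (vertical log axis) for 6 members, with Fosb-positive cells as filled and Fosb-negative cells as open points, CA3 in red, vehicle in blue and bars for the exact 95% counting interval. Nqo1 is above 1 in both states, while Osgin1 is at 3.32 and 3.002 in Fosb-positive and at 0.953 and 1.01 in Fosb-negative cells.

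Osgin1 was the member that set Fosb-positive proximal tubule cells apart. These cells were 259 of 1157 (22.4%) in the CA3 library and 337 of 1434 (23.5%) in the vehicle library. Osgin1 had 351 CPM in Fosb-positive and 54.7 CPM in Fosb-negative cells of the CA3 library, a ratio of 6.42 (5.67 to 7.29). In the vehicle library it had 322 CPM in positive and 45.2 CPM in negative cells, a ratio of 7.12 (6.27 to 8.09). The 2 libraries gave overlapping intervals, and 78.4% of the proximal tubule UMIs of Osgin1 in the CA3 and 80.2% in the vehicle library came from Fosb-positive cells. Osgin1 ranked 87 of 10749 genes by this ratio in the CA3 library and 95 of 10994 in the vehicle library. By segment, the ratio was 5.06 in early, 2.68 in middle and 17.6 (12.8 to 24.9) in late cells of the CA3 library. The same order held in the vehicle library, with 4.999, 2.38 and 14.9 (11.2 to 20.2).

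Prdx1 and Gsr had the opposite pattern. Prdx1 had 1152 CPM in Fosb-positive and 1768 CPM in Fosb-negative CA3 cells, a ratio of 0.652 (0.628 to 0.677), and 1124 and 1844 CPM in vehicle cells, a ratio of 0.610 (0.589 to 0.631). It was lower in Fosb-positive cells of each of the 3 segments in both libraries, with ratios from 0.562 to 0.765. Gsr had 122 CPM in positive and 201 CPM in negative CA3 cells, a ratio of 0.605 (0.539 to 0.678), and 110 and 161 CPM in vehicle cells, a ratio of 0.684 (0.610 to 0.766). Srxn1 was at 0.622 (0.477 to 0.803) in the CA3 library, but at 0.904 (0.704 to 1.16) in the vehicle library.

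The glutathione synthesis genes differed from each other here as well when all segments were pooled. Gclc was slightly higher in Fosb-positive cells, with ratios of 1.24 (1.08 to 1.41) in the CA3 and 1.20 (1.06 to 1.35) in the vehicle library. Gclm was slightly lower, at 0.903 (0.836 to 0.975) and 0.740 (0.689 to 0.794). By segment this was not steady. Gclm in early cells was at 1.12 (0.986 to 1.27) in the CA3 and 0.956 (0.845 to 1.08) in the vehicle library, and in late cells at 0.718 and 0.635. The Gclc interval lay above 1 only in late CA3 cells, 1.57 (1.20 to 2.07), and early vehicle cells, 1.41 (1.16 to 1.72). Over all segments Nqo1 was at 0.800 (0.603 to 1.05) and 0.756 (0.582 to 0.976), and Txnrd1 at 1.07 (0.948 to 1.20) and 0.900 (0.807 to 1.003), near or across 1. G6pdx had a ratio of 1.90 (1.21 to 2.97) in the CA3 library and 1.08 (0.685 to 1.69) in the vehicle library, on 85 and 89 UMIs in all. Past 1.5 times, 2 of 9 counted members were higher in Fosb-positive CA3 cells and 3 lower, against 18.7% and 8.7% of all genes. In vehicle cells 1 was higher and 1 lower, against 18.4% and 9.42%, and the median log2 ratio of the members was -0.15 in each library, against 0.07 for all genes. The members thus did not share 1 direction between the states.

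Depth and mitochondrial share moved with the Fosb state. Fosb-positive cells had a median of 13802 UMIs against 6510.5 in Fosb-negative cells of the CA3 library, and 11770 against 6232 in the vehicle library. Their median mitochondrial share was 12.4% against 22.3% in the CA3 library and 12.8% against 20.2% in the vehicle library. Among cells with at least 8000 UMIs and at most 20% mitochondrial UMIs, a subset chosen after these values were seen, the median mitochondrial shares were close, at 10.8% against 11.7% in the CA3 and 11.4% against 11.5% in the vehicle library. Depths remained apart there, with medians of 15342.5 against 11625.5 UMIs in the CA3 and 13529 against 10917 UMIs in the vehicle library. In that subset the Osgin1 ratio was 5.80 (4.87 to 6.96) in the CA3 and 7.65 (6.27 to 9.42) in the vehicle library, and the Prdx1 ratio 0.656 (0.625 to 0.688) and 0.642 (0.613 to 0.672). Gsr was at 0.625 and 0.746 there, and G6pdx at 1.37 (0.768 to 2.49) and 1.14 (0.613 to 2.18). Gclm was at 1.004 (0.906 to 1.11) in CA3 and 0.846 (0.768 to 0.932) in vehicle cells of the subset. Gclc was at 1.29 (1.08 to 1.54) and 1.11 (0.929 to 1.33), and Nqo1 at 1.12 (0.759 to 1.67) and 0.852 (0.605 to 1.20). The intervals of CA3 Gclm, vehicle Gclc and vehicle Nqo1 thus included 1 there, unlike over all proximal tubule cells. The ratios of Osgin1, Prdx1 and Gsr were about as large as over all cells, and that of G6pdx in CA3 cells was smaller. The part of depth and mitochondrial share in the ratios was not tested. Summed endothelial markers were at 5.73 CPM in positive and 4.27 CPM in negative CA3 cells and at 5.98 and 6.67 CPM in vehicle cells, and connecting tubule markers at 80.3 and 148 CPM and at 68.9 and 111 CPM, whose part in the ratios was not tested. Erythroid markers were at 722 CPM in positive and 28.9 CPM in negative CA3 cells, and at 21.1 and 1303 CPM in vehicle cells, and plasma cell markers at 712 and 3.56 CPM in vehicle cells. The erythroid and plasma cell differences came from few cells: 1 Fosb-positive CA3 cell held 2325 of 2393 erythroid UMIs, 3 Fosb-negative vehicle cells held 8582 of 8788, and 2 Fosb-positive vehicle cells held 2728 of 2738 plasma cell UMIs. Without these 6 cells, left out after their values were seen, the Osgin1 ratio was 6.47 (5.71 to 7.34) in the CA3 and 7.19 (6.34 to 8.18) in the vehicle library, and the Prdx1 ratio 0.650 and 0.616.

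**Figure D3:**
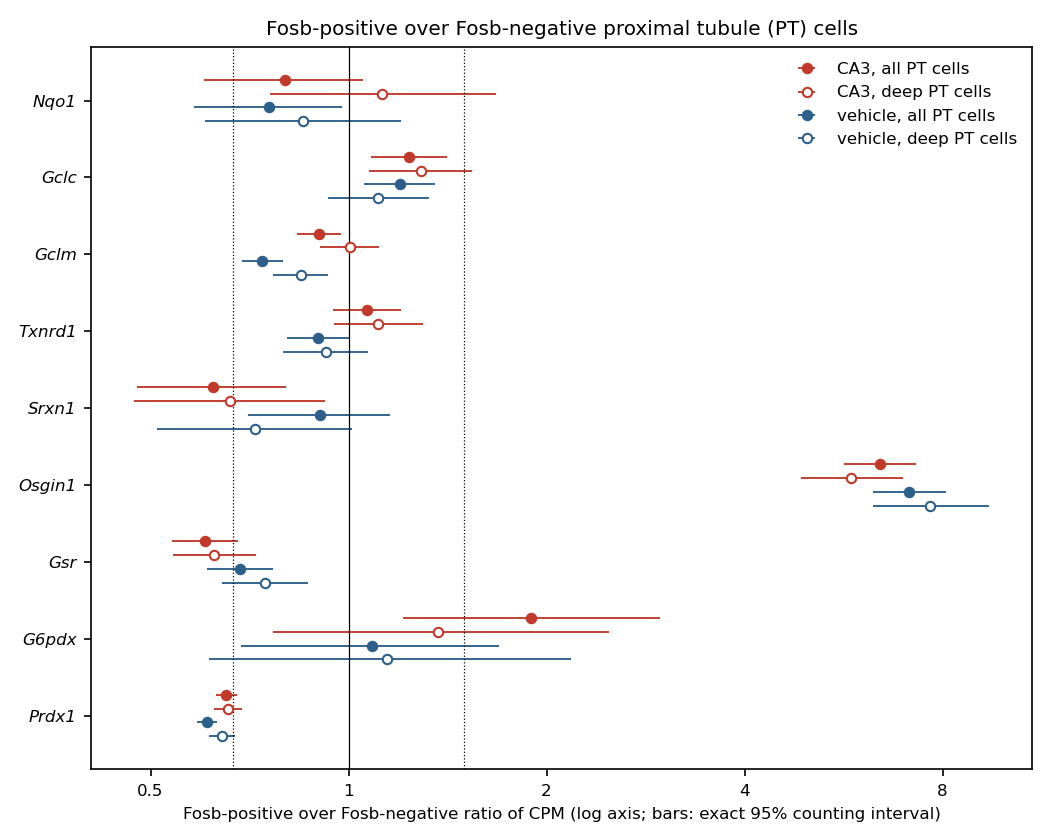
Fosb-positive over Fosb-negative ratio of CPM (horizontal log axis) for 9 members, with all PT cells as filled and deep PT cells as open points, CA3 in red, vehicle in blue, bars for the exact 95% counting interval and dotted lines at 1.5 times either way. Osgin1 lies between 5.80 and 7.65 in all 4 sets, and Prdx1 between 0.610 and 0.656.

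Osgin1 was also higher in cells with more Fosb. After thinning to 2000 UMIs, Osgin1 in CA3 cells had 56.2, 138, 370 and 708 CPM with 0, 1, 2 or 3, and 4 or more Fosb UMIs. In vehicle cells it had 48.5, 154, 304 and 485 CPM over the same steps. The share of cells with an Osgin1 UMI was 8.41% in the lowest and 56.3% in the highest step of the CA3 library, and 6.48% and 44.3% in the vehicle library. Prdx1 ran the other way in vehicle cells, at 1862, 1121, 1050 and 924 CPM, and in CA3 cells was at 1791, 1290, 773 and 843 CPM. Gclc had no steady order, with 103, 87.7, 202 and 95.4 CPM in CA3 cells and 89.3, 112, 165 and 93.3 CPM in vehicle cells. The steps pooled all segments and were not matched for depth or mitochondrial share. Median depth before thinning was 7057 UMIs in the lowest and 13465 in the highest CA3 step, and 6500 and 12567.5 in vehicle cells. The median mitochondrial share was 21.3% and 10.4% in CA3 cells, and 19.8% and 11.6% in vehicle cells. The part of segment, depth and mitochondrial share in these steps was not tested.

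**Figure D4:**
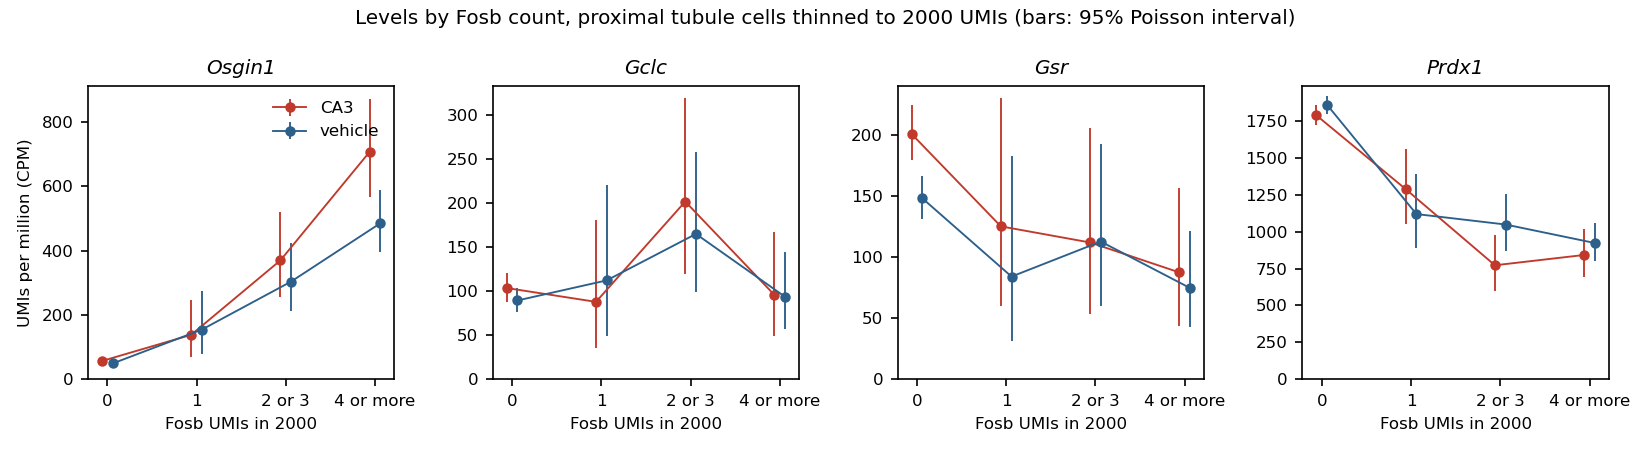
Levels of 4 members in CPM (vertical axes from 0) by the number of Fosb UMIs in proximal tubule cells thinned to 2000 UMIs, with CA3 in red, vehicle in blue and bars for the 95% Poisson interval. Osgin1 climbs at each step in both libraries, to 708 CPM in CA3 and 485 CPM in vehicle cells, while Prdx1 and Gsr are highest in cells with no Fosb UMI.

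Among genes that regulate Nrf2 or pair with it, the small Maf genes were higher in Fosb-positive cells. Mafk had a positive over negative ratio of 4.18 (2.83 to 6.28) in the CA3 and 2.77 (1.996 to 3.87) in the vehicle library, and Mafg of 1.80 (1.61 to 2.01) and 1.65 (1.49 to 1.83). Maff, the other small Maf gene of the list, had 5 UMIs in positive and 1 in negative CA3 cells, and 25 and 4 in vehicle cells, a vehicle ratio of 10.96 (3.78 to 43.3). Nfe2l2 itself was at 1.35 (1.17 to 1.55) in the CA3 and 1.10 (0.966 to 1.255) in the vehicle library. Keap1, at 0.956 and 0.912, and Bach1, at 1.06 and 0.997, had intervals that included 1. Rbx1, the RING subunit of the Cul3 ligase, was lower, at 0.695 (0.630 to 0.766) and 0.648 (0.591 to 0.711). Of 12 counted regulators, 3 were higher past 1.5 times and none lower in the CA3 library, against 18.7% and 8.7% of all genes. Of 13 in the vehicle library 5 were higher and 1 lower, against 18.4% and 9.42%.

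Other Nrf2 targets were lower in Fosb-positive cells more often than higher. In the CA3 library 2 of 27 counted were higher and 6 lower past 1.5 times, with a median log2 ratio of -0.26, against 18.7% of all genes higher and 8.7% lower. The vehicle library had 3 of 28 higher and 12 lower, median -0.45, against 18.4% and 9.42%. Within the early segment alone 1 of 25 was higher and 1 lower in each library, counts that have no share of all genes beside them here. The median log2 ratio of these targets there was -0.20 in the CA3 and -0.28 in the vehicle library, against -0.001 and -0.002 for all genes. Over all segments Fth1, the ferritin heavy chain, was at 0.607 (0.598 to 0.615) in the CA3 and 0.598 (0.590 to 0.606) in the vehicle library. Taldo1, transaldolase of the pentose phosphate pathway, was at 0.601 and 0.619, and the glutathione S-transferase Gsta3 at 0.587 and 0.632. Thioredoxin, Txn1, was at 0.657 and 0.609, and Gsta2 at 0.674 and 0.619. Against these, Abcc2, an export pump for conjugates, was higher, at 1.57 (1.48 to 1.67) and 1.54 (1.45 to 1.63). Hmox1, haem oxygenase, was at 1.39 (1.03 to 1.86) and 1.32 (0.998 to 1.75). Of 16 other antioxidant enzymes, none was higher past 1.5 times, against 18.7% of all genes in the CA3 and 18.4% in the vehicle library. Those lower were 3 in the CA3 and 4 in the vehicle library, against 8.7% and 9.42% of all genes. Among the lower ones were Prdx5, at 0.618 and 0.612, and Gpx4, the peroxidase of lipid hydroperoxides, at 0.615 and 0.611. Within the early segment alone none of the 16 was called in the CA3 library, and 2 were higher and 1 lower in the vehicle library. These counts too have no share of all genes beside them, so they are not read as a result about the enzymes. Their median log2 ratio there was -0.23 in the CA3 and -0.38 in the vehicle library, against -0.001 and -0.002 for all genes.

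Within single proximal tubule cells the members were found together about as often as their separate shares predict. At 2000 UMIs per cell, the observed over expected share of cells with both genes had a median of 1.07 over the pairs of the CA3 library and 1.05 over those of the vehicle library. Over all pairs of genes found in at least 5% of cells the median was 1.01 in each, and 5% to 95% of those pairs spanned 0.593 to 1.52 in the CA3 and 0.628 to 1.47 in the vehicle library. Nqo1 and Gclm, both highest in late cells, were found together in 27 CA3 cells, 1.39 times the expected number, and in 36 vehicle cells, 1.42 times. Gclm and Txnrd1 shared 90 CA3 cells, 1.13 times, and 147 vehicle cells, 1.19 times. Osgin1 was found slightly less often than predicted with Gsr, at 0.875 in the CA3 and 0.911 in the vehicle library, and with Prdx1, at 0.949 and 0.914. All of these lie inside the span of other pairs. Nqo1 itself was found in 4.32% of CA3 and 4.39% of vehicle cells, under the 5% asked of those pairs. Over all pairs of members the values ran from 0 to 1.85 in the CA3 and from 0 to 3.25 in the vehicle library, so some lay outside the span. These extremes rested on at most 2 cells with both genes. Pairs with Slc7a11 had no expected share and gave no value. A cell most often held 2 of the 10 genes, in 35.5% of CA3 and 34.0% of vehicle cells, and none in 5.19% and 5.23%. The highest number was 6 in the CA3 and 7 in the vehicle library, and the median was 2 in both Fosb states of each library.

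Between the groups, the members differed little in the proximal tubule. Of 9 counted members, none was past 1.5 times higher in CA3, against 3.59% of 11744 genes, and none lower, against 3.99%, and the median log2 ratio was 0.04 beside 0.01 for all genes. Osgin1 had 1484 UMIs and 162 CPM in CA3 cells, and 1543 UMIs and 146 CPM in vehicle cells, a ratio of 1.11 (1.03 to 1.19). Gsr had 1579 UMIs and 172 CPM in CA3 cells and 1507 UMIs and 142 CPM in vehicle cells, a ratio of 1.21 (1.13 to 1.30). Srxn1 had 315 UMIs and 34.4 CPM in CA3 cells and 297 UMIs and 28.0 CPM in vehicle cells, a ratio of 1.23 (1.04 to 1.44). These 3 had intervals above 1, which counts molecules only and does not say how 2 further libraries would differ.

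Gclm was the member with the clearest ratio below 1, with 2988 UMIs and 326 CPM in CA3 cells and 3738 UMIs and 353 CPM in vehicle cells, 0.924 (0.880 to 0.970). Prdx1, at 14162 UMIs in CA3 and 16766 in vehicle cells, had a ratio of 0.976 (0.955 to 0.998). The late cluster led by Kap, an androgen-regulated kidney gene, held 11 CA3 and 33 vehicle cells. Without it, a choice made after its values were seen, Gclm was at 0.967 (0.920 to 1.02) and Prdx1 at 0.982 (0.960 to 1.004), and both intervals included 1. Nqo1 had 247 UMIs in CA3 and 292 in vehicle cells, a ratio of 0.978 (0.822 to 1.16), so a difference of 1.5 times in either direction lies outside its interval. Gclc was at 1.03 (0.942 to 1.12), Txnrd1 at 0.938 (0.869 to 1.01) and G6pdx at 1.10 (0.810 to 1.503). Slc7a11, with 1 UMI in CA3 and 0 in vehicle cells, could not be compared.

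By segment, the Osgin1 ratio was largest in the middle, where it had 88.1 CPM in CA3 and 58.4 CPM in vehicle cells, 1.51 (1.26 to 1.80), just past the called size that 5.23% of genes passed upwards and 4.27% downwards there. It was 1.04 (0.921 to 1.17) in early and 1.12 (1.01 to 1.245) in late cells. Gsr was at 1.27 (1.13 to 1.43) in early, 1.23 (1.10 to 1.37) in middle and 1.07 (0.906 to 1.26) in late cells. Gclm differed in the late segment, with 453 CPM in CA3 and 540 CPM in vehicle cells, 0.839 (0.766 to 0.919), and was at 1.03 (0.943 to 1.12) in early cells. The late segment joins clusters in unlike shares: the cluster led by Kap had 1008 CPM of Gclm in CA3 and 1284 CPM in vehicle cells. Without it, late Gclm was at 419 CPM in CA3 and 441 CPM in vehicle cells, 0.951 (0.859 to 1.05), while without the late cluster high in Fosb it was at 0.740 (0.662 to 0.826). Without the cluster led by Kap, late Osgin1 was at 1.06 (0.953 to 1.18). Late Gclc was at 1.38 (1.12 to 1.70) without that cluster, against 1.10 (0.914 to 1.32) with it. Srxn1 was at 1.42 (1.08 to 1.86) in middle and 0.984 (0.645 to 1.49) in late cells. Whether these ratios differ between segments beyond 1 library per group was not tested.

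**Figure D5:**
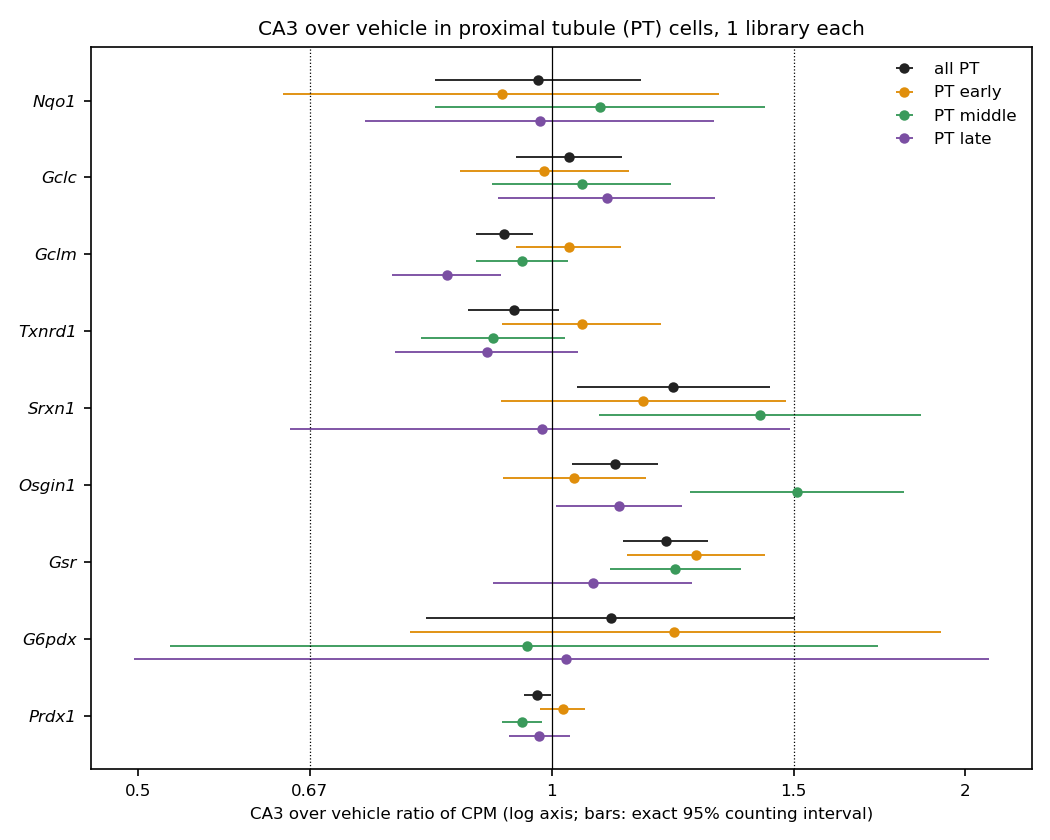
CA3 over vehicle ratio of CPM (horizontal log axis) for 9 members in all PT cells and in each segment, with bars for the exact 95% counting interval and dotted lines at 1.5 times either way. The points lie between 0.839 and 1.51, and only Osgin1 in the middle segment reaches a dotted line.

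The regulators and partners of Nrf2 were also close between the groups, with 0 of 13 higher past 1.5 times and 1 lower, against 3.59% and 3.99% of all genes. Nfe2l2 had 85.6 CPM in CA3 and 92.2 CPM in vehicle cells, 0.928 (0.843 to 1.02), Keap1 was at 0.970 (0.833 to 1.13) and Bach1 at 0.887 (0.771 to 1.02). The 1 lower was Maff, with 6 UMIs in CA3 and 29 in vehicle cells, 0.239 (0.0812 to 0.586). Of 29 other Nrf2 targets 3 were higher and 1 lower, against the same shares of all genes. Gstp1, a glutathione S-transferase, was the furthest, with 96.2 CPM in CA3 and 30.5 CPM in vehicle cells, 3.16 (2.78 to 3.60). This difference was not limited to the proximal tubule. All other kept cells had 60.3 CPM of Gstp1 (187 UMIs) in the CA3 and 13.5 CPM (52 UMIs) in the vehicle library. Cbr3, a carbonyl reductase, was at 1.81 (1.26 to 2.63), and Abcc3, an export pump, had 9 UMIs in CA3 and 39 in vehicle cells, 0.267 (0.114 to 0.560). All of these Abcc3 UMIs lay in late cells, where the libraries held unlike shares of the clusters. The part of this mix in the ratio was not tested. Hmox1 had 20.8 CPM in CA3 and 20.2 CPM in vehicle cells, 1.03 (0.844 to 1.26). None of 16 other antioxidant enzymes was past 1.5 times. Gpx3, the secreted glutathione peroxidase made by the proximal tubule, was at 1.20 (1.19 to 1.21), and Prdx4, the peroxiredoxin of the endoplasmic reticulum, at 0.775 (0.680 to 0.883).

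Outside the proximal tubule, only the distal nephron and T or NK classes had at least 50 cells in each library. In the distal nephron 8 members were counted and none was past 1.5 times, against 8.12% of genes higher and 9.72% lower. Gclc had 249 CPM in CA3 and 232 CPM in vehicle cells, a ratio of 1.08 (0.896 to 1.29), and Srxn1 68.2 and 58.9 CPM, a ratio of 1.16 (0.804 to 1.66). In T or NK cells 5 members were counted and Gclc alone was lower past 1.5 times, with 31 UMIs in CA3 and 22 in vehicle cells, 0.647 (0.363 to 1.17), while 12% of all genes were lower and 13.7% higher. Its interval includes 1. Osgin1 was too sparse in both classes to count, with 13 UMIs in CA3 and 5 in vehicle distal nephron cells, and 15 and 2 in T or NK cells.

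The genes whose levels across 8 classes were most like the mean profile of the 10 members were Aldh2, Tmem37, Rps27l, Hacd2, Bloc1s1 and Dhrs1. Likeness was Pearson's r of log2(CPM + 10) over the 3 proximal tubule segments and 5 other classes, with libraries joined, among 3578 genes of at least 50 CPM on average. Aldh2, mitochondrial aldehyde dehydrogenase, had an r of 0.981, and the other genes lay between 0.968 and 0.9501. The mean profile did not stand for every member: r with it was -0.417 for G6pdx, -0.150 for Slc7a11 and 0.423 for Gclc. For the other members it lay between 0.547 (Srxn1) and 0.949 (Prdx1). The classes share libraries and differ in depth, so these values are a description. Aldh2 ran at 386, 674 and 689 CPM through early, middle and late proximal tubule cells and at 54.2 CPM in T or NK cells.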

How the data were processed

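Kidney cells of 1 CA3 library and 1 vehicle library were profiled with 10x Chromium 3' chemistry. The authors deposited unnormalised UMI counts, made with Cell Ranger 3.0.1 on mm10 per the submitters' processing notes. Read filters and cell-calling settings were not stated in the labels.

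Barcodes had to show 500 genes or more and 50% mitochondrial UMIs or less. They were scored for doublets within each library (3 CA3 and 1 vehicle cells removed, so doublets may remain). Kept cells were clustered together with scanpy 1.11.5 (2000 variable genes, 30 principal components, 15 neighbours, Leiden resolution 1, leidenalg 0.10.2), with members and listed genes kept out of the clustering genes. This gave 20 clusters, 10 of them proximal tubule, named from marker lists. Segments were cut at 800 and 150 CPM of Slc5a2 plus Slc5a12, limits set after the levels were seen.

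Counts were summed per class and library and divided by UMIs of genes not encoded in mitochondria. Ratios carry the exact conditional binomial interval, levels the exact Poisson interval and shares the Clopper-Pearson interval, all for counting error only. A gene was counted with at least 20 UMIs over both groups and called past 1.5 times. Shares used cells thinned to 2000 UMIs, and no kept cell was shallower. The scripts were tested on simulated counts.

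Members and gene lists (13 regulators, 33 other targets, 16 other antioxidant enzymes) were chosen with earlier results of these data known. All members are named, and up to 4 genes of each other list and comparison, those whose interval bound nearest 1 lies farthest from 1, with Nfe2l2, Keap1, Bach1 and Hmox1 always allowed. Alternatives covered cell filters, clustering, denominators, depth, segments and single cells of high counts.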

Additional observations from a re-analysis of the deposited data

How the results depend on the processing

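No paired analysis was possible because each group had 1 library. In the proximal tubule, no member was past 1.5 times between CA3 and vehicle under any of the other alternatives run, but 1 was higher with cells thinned to 2000 UMIs (G6pdx, 1.71) and 1 in the middle segment. In T or NK cells the count of lower members was 0 with each library clustered alone. In the distal nephron the median log2 ratio was -0.0672 after thinning, against 0.08, and under the strict filter the class gave no value because a library had under 50 cells. Among Fosb-positive against Fosb-negative CA3 cells, 1 member was higher after thinning, in the middle segment and in deep cells, a subset chosen after seeing the data, and 1 was lower in the early segment and with mitochondrial UMIs in the denominator. G6pdx was at 0.873 in the middle segment. In vehicle cells the count of lower members was 4 after thinning and in the middle segment, 3 in the late segment and for per-cell means, 2 for clusters led by immediate early genes, without the 3 highest cells and under the strict filter, and 0 in the early segment, while 2 were higher in the late segment. Late against early CA3 cells gave 2 higher members with no cell filter and at resolution 0.5, and 1 lower with members among the clustering genes, without the 50 highest genes and after thinning. The Osgin1 ratio of late to early cells was 0.810 in CA3 and 0.972 in vehicle cells with no filter, 0.760 and 0.896 at resolution 2, and 0.797 in the vehicle library clustered alone. Proximal tubule against other CA3 cells gave 1 lower member after thinning. The counts of members are printed here without the share of all genes called under the same setting. They show how far the counts moved and are no result about the members. The cause of these shifts was not tested. Osgin1 stayed above 1 between Fosb states under all 12 alternatives of each library, from 2.68 to 17.6 in CA3 and from 2.38 to 14.9 in vehicle cells. At this depth Slc7a11, with 1 CA3 and 0 vehicle UMIs in the proximal tubule, could not be compared, and G6pdx rested on 85 and 89 UMIs.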

Other observations

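Slc7a11 was concentrated in few phagocytes. In the CA3 library 3 cells of the mononuclear phagocyte class held 14, 13 and 12 of its 48 UMIs there, and the other 39 cells held 9. The same 3 cells had 718, 48 and 30 UMIs of S100a8 and 945, 37 and 9 UMIs of S100a9, calprotectin genes known from neutrophils and inflammatory monocytes, and no UMI of C1qa, a complement gene of resident macrophages. Among the other 39 cells S100a8 was found in 3 and C1qa in 15. In the vehicle library the cells with most Slc7a11 had 8 and 3 UMIs, and neither had a UMI of S100a8, S100a9 or C1qa. These cells were looked at after their Slc7a11 values were seen. The class level of 111 CPM in the CA3 and 40.4 CPM in the vehicle library therefore rests on a handful of cells.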
